A study of Rattus norvegicus with 11 samples.

Results

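White fat renews itself from stromal cells that can become adipocytes, and 10 genes that mark these cells or drive their maturation were followed here in rat fat with and without follicle-stimulating hormone (FSH). They were taken by name from the 25274 gene rows with complete counts. They are the progenitor surface and secreted proteins Dpp4, Pi16, Cd34 and Cd248, the preadipocyte factors Dlk1 and Zfp423, and the adipogenic transcription factors Cebpa, Cebpb, Cebpd and Klf15. RNA came from retroperitoneal white adipose tissue of individual female wild-type Wistar rats, 1 library per rat. The groups were 5 rats that received degarelix plus FSH at 6 µg per kg per day and 6 rats that received degarelix only, with vehicle in the pump. Degarelix blocks the receptor for gonadotropin-releasing hormone and so lowers the pituitary's own output of FSH and luteinizing hormone. Rats of both groups entered at 10 weeks of age, ate a western diet for 6 weeks and were then ovariectomized. In both, food was restricted for 12 days and free for 7 days, followed by a 4 h fast and harvest at 19 weeks. Every difference below is degarelix plus FSH relative to degarelix only.

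In mouse fat, cells of the connective tissue sheath that carry DPP4 and PI16 are known as early progenitors that give rise to committed preadipocytes. CD34 marks adipose stromal cells and also capillary endothelium, and CD248 (endosialin) sits on stromal cells and pericytes. DLK1 (Pref-1) holds preadipocytes back from maturing, while the zinc finger protein ZFP423 commits stromal cells to the fat lineage. In the classical cascade, C/EBPβ and C/EBPδ come first and induce C/EBPα, which acts with PPARγ to turn on and maintain the adipocyte programme. KLF15 acts late in adipogenesis and is induced by glucocorticoids.

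None of the 8 genes that could be tested passed the threshold with FSH (edgeR's quasi-likelihood test, Benjamini-Hochberg adjusted p of 0.05 over 12846 genes), against 2.27% of all genes tested. At an unadjusted p below 0.05 there was 1, Zfp423, against 22.6% of all genes. DESeq2 called 1 of the 8, also Zfp423 (8.84% of all genes), and limma-voom called 0 (2.52%). The log2 change was above 0 for 4 genes and below 0 for 4, with a median of -0.03, where the median over all genes was 0.00812. None of the 8 separated the groups without overlap, against 4.34% of all genes. Zfp423 also passed without degarelix only replicate 2 (0.978% of all genes) and at a threshold of 0.10 (7.49%), and none passed without FSH replicate 3 (0.708%). The other 2 genes, Cd248 and Dlk1, held almost no counts in either group and did not pass the filter on low counts.

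Total counts lay between 13163021 and 19837706 in degarelix plus FSH libraries and between 16452117 and 23694602 in degarelix only libraries. Values are counts per 1000000 of a library's TMM-scaled total count (CPM), means are given ± SD over 5 and 6 rats, and 3 counts, the limit that a count of 0 allows, equal 0.127 to 0.223 CPM (counting error only). The tissue's identity showed in adiponectin (Adipoq), at 10244 to 14579.5 CPM in degarelix plus FSH rats and 9739 to 11895 CPM in degarelix only rats, and in the stromal receptor Pdgfra, at 28.4 to 40.9 CPM in degarelix plus FSH rats and 26.7 to 47.4 CPM in degarelix only rats. One library stood apart. Sox10, a transcription factor gene of Schwann cells, was at 64.4 CPM in FSH replicate 3, against 1.94 to 4.80 CPM in the other 10 libraries. Reln, taken here as a lymphatic endothelial marker, was at 26.0 CPM in that library, against 0.254 to 1.26 CPM in the other 10. The rest of the lymphatic list did not stand apart to that degree. In FSH replicate 3, Lyve1 was at 17.5 CPM (7.86 to 25.0 in the other 10) and Pdpn at 6.61 (2.16 to 9.52). Mmrn1 was at 2.01 CPM (0.0485 to 1.36 in the other 10) and Prox1 at 0.223 (0 to 0.378). S100b, which Schwann cells and adipocytes both express, lay at 3007 to 4660.0 CPM in degarelix plus FSH rats and 3812 to 5161 CPM in degarelix only rats. FSH replicate 3 also had the lowest total count, so each gene below is given with and without it. In bulk tissue, a change in the number of cells of a type and a change in RNA per cell cannot be told apart.

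**Figure D1:**
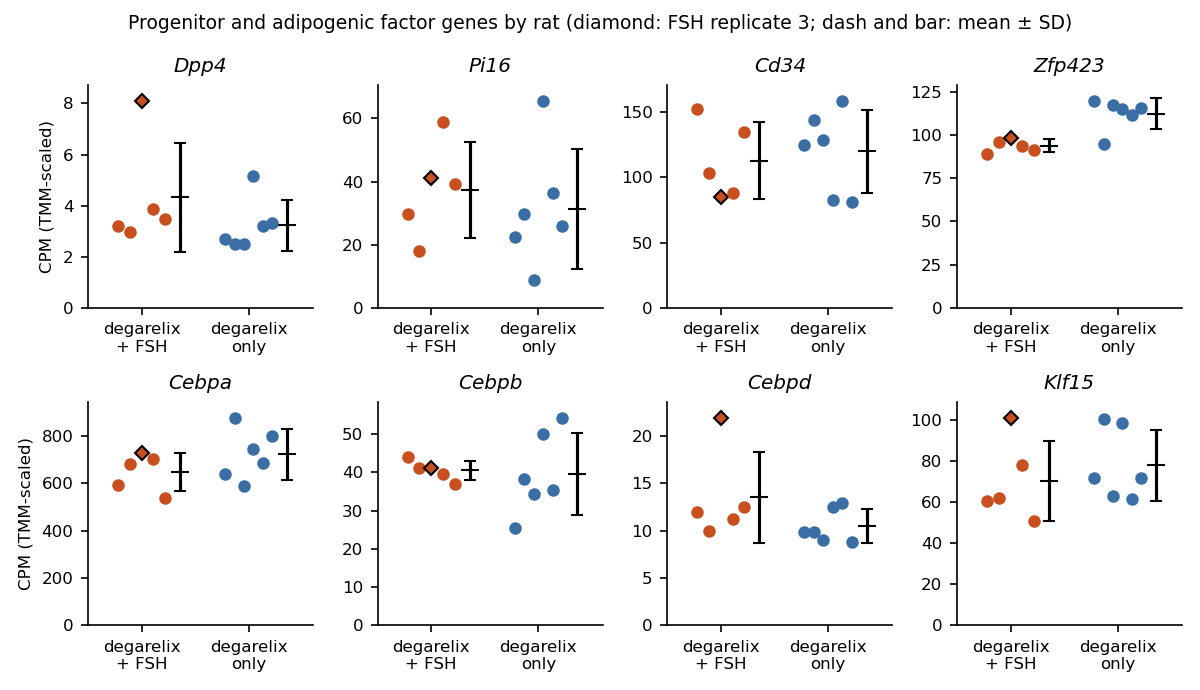
CPM of the 8 genes tested, 1 point per rat, in degarelix plus FSH rats (left, orange) and degarelix only rats (right, blue), with mean ± SD beside the points; the diamond is FSH replicate 3. The groups overlap for every gene, and Dpp4, Cebpd and Klf15 each have their highest value, 8.09, 21.9 and 101 CPM, in that library. Klf15 is nearly as high, at 100.4 CPM, in degarelix only replicate 2.

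Of the progenitor surface genes, Dpp4 (ENSRNOG00000030763), a dipeptidyl peptidase of the cell membrane, was read at low depth, 41 to 112 counts per library. It held 3.18, 2.96, 8.09, 3.89 and 3.49 CPM in degarelix plus FSH replicates 1 to 5 and 2.48 to 5.15 CPM in the degarelix only rats (median 2.96). FSH replicate 3 and degarelix only replicate 4 stood above the rest, and the groups overlapped (log2 change 0.41 ± 0.29 SE, adjusted p = 0.416). Without FSH replicate 3 the log2 change was 0.06 (adjusted p = 0.902). The group means were 4.32 ± 2.14 CPM in degarelix plus FSH rats and 3.23 ± 1.01 CPM in degarelix only rats , and the 95% interval of the log2 change, -0.22 to 1.03, spans changes in both directions.

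Pi16 (ENSRNOG00000000525), a secreted protein of the same progenitors named as a peptidase inhibitor, had the widest span of the 8 genes, a 7.50-fold distance between the lowest and the highest of the 11 rats. It held 29.8, 17.8, 41.1, 59.0 and 39.4 CPM in degarelix plus FSH replicates 1 to 5 and 8.73 to 65.5 CPM in the degarelix only rats (median 27.7). The lowest and the highest value both came from degarelix only rats, replicates 3 and 4. The difference was smaller than the spread between rats (log2 change 0.25 ± 0.42 SE, adjusted p = 0.760; 95% interval -0.67 to 1.17). Without FSH replicate 3 the log2 change was 0.21 (adjusted p = 0.832). Degarelix only replicate 4 also had the highest summed macrophage markers, which reached 578 CPM there and ran at 224 to 471 CPM elsewhere. Across the 11 rats, Pearson's r with these summed markers was 0.297 for Dpp4 and 0.362 for Pi16 (permutation test, adjusted p = 0.864 and 0.823 over 40 relations). Within the 6 degarelix only rats it was 0.945 for Dpp4 and 0.686 for Pi16. Without the 2 rats farthest from each gene's median, which include degarelix only replicate 4, it was 0.406 for Dpp4 and -0.018 for Pi16. The part of macrophage RNA in the Dpp4 and Pi16 values was not tested.

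Dpp4 and Pi16 ranked the rats alike. Across the 11 rats Spearman's rho between them was 0.864 (permutation p = 0.00125, adjusted p = 0.0350 over the 28 pairs of the 8 genes), and Pearson's r on log2 CPM was 0.620 (permutation p = 0.0524, adjusted p = 0.366). Pearson's r was 0.762 over 9 rats without FSH replicate 3 and degarelix only replicate 4, the pair farthest from the median of Dpp4, and 0.783 within the 6 degarelix only rats. This was the one pair that passed the adjustment, by rank and not by r. All these values share the libraries and their scaling. The promoter windows of this pair, from RefSeq (GRCr8, 250 bases before to 50 after the gene's start, on the gene's strand), are shown because their levels moved together. The windows are chr3:67452373-67452672 (minus strand) and chr20:7377703-7378002 (plus strand). Capitals mark the C/EBP-type motif TTGCNNAA, the KLF-type motif CACCC and the cAMP response element half-site TGACG, each searched on both strands.
Dpp4: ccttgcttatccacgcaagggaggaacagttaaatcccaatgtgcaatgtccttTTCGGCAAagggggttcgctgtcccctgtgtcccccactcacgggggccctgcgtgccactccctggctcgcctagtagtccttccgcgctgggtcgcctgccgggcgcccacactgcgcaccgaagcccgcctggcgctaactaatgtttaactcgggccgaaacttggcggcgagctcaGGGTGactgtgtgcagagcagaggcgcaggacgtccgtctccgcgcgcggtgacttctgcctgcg
Pi16: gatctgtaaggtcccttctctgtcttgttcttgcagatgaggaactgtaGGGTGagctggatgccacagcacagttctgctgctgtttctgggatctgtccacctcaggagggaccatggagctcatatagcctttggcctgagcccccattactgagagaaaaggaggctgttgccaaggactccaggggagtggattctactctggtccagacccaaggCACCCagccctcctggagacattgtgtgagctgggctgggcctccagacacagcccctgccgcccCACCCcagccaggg
Dpp4 held 1 C/EBP-type match and 1 CACCC match, both on the reverse strand, and Pi16 held 3 CACCC matches and none of the C/EBP type. Of 33469 promoter windows of this length, 10.6% held the first motif, 54.9% the second and 21.2% the third. A match describes letters in a window and shows no binding.

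**Figure D2:**
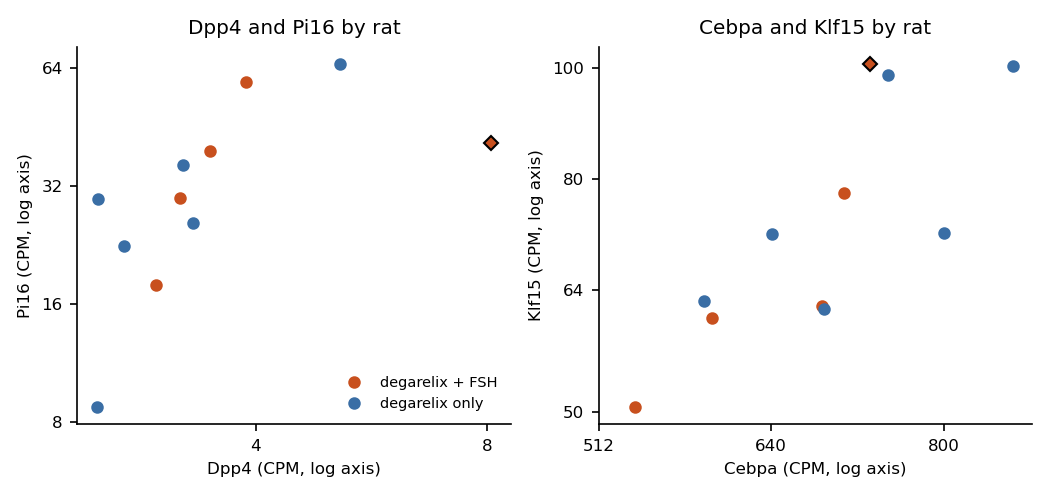
CPM of Dpp4 (horizontal) and Pi16 (vertical) on the left and of Cebpa (horizontal) and Klf15 (vertical) on the right, log axes, 1 point per rat, degarelix plus FSH in orange and degarelix only in blue; the diamond is FSH replicate 3. Within each pair, rats high for one gene tend to be high for the other (Spearman's rho 0.864 and 0.800), and FSH replicate 3 lies to the right of the Dpp4 and Pi16 trend.

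Cd34 (ENSRNOG00000045558), a sialomucin of stromal and endothelial surfaces, did not pass either. It held 152, 103, 85.0, 88.0 and 135 CPM in degarelix plus FSH replicates 1 to 5 and 81.1 to 159 CPM in the degarelix only rats (median 126). Values near the bottom and near the top occurred in both groups (log2 change -0.09 ± 0.21 SE, adjusted p = 0.839; 95% interval -0.55 to 0.37). Without FSH replicate 3 the log2 change was -0.00203 (adjusted p = 0.997), and without degarelix only replicate 5 its sign turned (0.00743, adjusted p = 0.988). Summed endothelial markers lay at 1618 to 2638 CPM in degarelix plus FSH rats and 1425 to 1932 CPM in degarelix only rats (unadjusted p = 0.0390, two-sided exact permutation test; adjusted p = 0.156 over 4 summed lists). The Cd34 difference thus had the opposite sign to that of the summed endothelial markers, and whether the 2 differ was not tested. The summed stromal fibroblast and progenitor genes (16 of 16 matched) lay at 6102 to 8609 CPM in degarelix plus FSH rats and 6399 to 8069 CPM in degarelix only rats (exact permutation p = 0.783).

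Cd248 (ENSRNOG00000052685) held 1 count in all 11 libraries together, in FSH replicate 5 (0.0485 CPM). Dlk1 (ENSRNOG00000019584) held 2 counts, both in FSH replicate 3 (0.149 CPM). All 6 degarelix only libraries were at 0 for both genes, which allows up to 0.127 to 0.186 CPM there. The two-sided exact permutation p was 0.909 for either gene. It is fixed when 1 degarelix plus FSH library alone holds counts, so it does not bear on a group difference. No fold is given, since both groups lie under the limit that a count of 0 allows. Some other stromal genes were read well in the same libraries, and some were not. The matrix proteoglycan decorin (Dcn) lay at 277 to 384 CPM in degarelix plus FSH rats and 196 to 389 CPM in degarelix only rats. The collagen chain Col1a1 lay at 600.0 to 1507 CPM in degarelix plus FSH rats and 652 to 1189 CPM in degarelix only rats. Col1a2, another collagen chain, lay at only 0.0743 to 0.601 CPM in degarelix plus FSH rats and 0.121 to 0.557 CPM in degarelix only rats. Whether the Cd248 and Dlk1 rows miss reads was not tested.

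Zfp423 (ENSRNOG00000014658) came closest to a change, with lower values in degarelix plus FSH rats. It held 89.1, 95.9, 98.5, 93.9 and 91.2 CPM in degarelix plus FSH replicates 1 to 5 and 94.8 to 119.7 CPM in the degarelix only rats (median 115). The mean of the degarelix only rats exceeded all 5 degarelix plus FSH values. The groups overlapped through 1 rat, degarelix only replicate 2, which at 94.8 CPM lay below degarelix plus FSH replicates 2 and 3. The means were 93.7 ± 3.75 CPM in degarelix plus FSH rats and 112 ± 8.98 CPM in degarelix only rats, a ratio of 0.834. The adjusted p missed the threshold (log2 change -0.26 ± 0.06 SE, unadjusted p = 0.00155, adjusted p = 0.0542; 95% interval -0.40 to -0.12). It was 0.0770 without FSH replicate 3 and 0.0242 without degarelix only replicate 2. That last setting and DESeq2 (adjusted p = 0.00376) passed, while the range over 20 alternative settings was 0.00376 to 0.183. Relative to the mean, its SD was the smallest of the 8 genes in each group. Across the 11 rats, Zfp423 ran lower where summed endothelial markers ran higher (Pearson's r = -0.641, permutation test, adjusted p = 0.395 over 40 relations). Within the 6 degarelix only rats r was -0.0682. The part of endothelial RNA in the Zfp423 value was not tested.

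**Figure D3:**
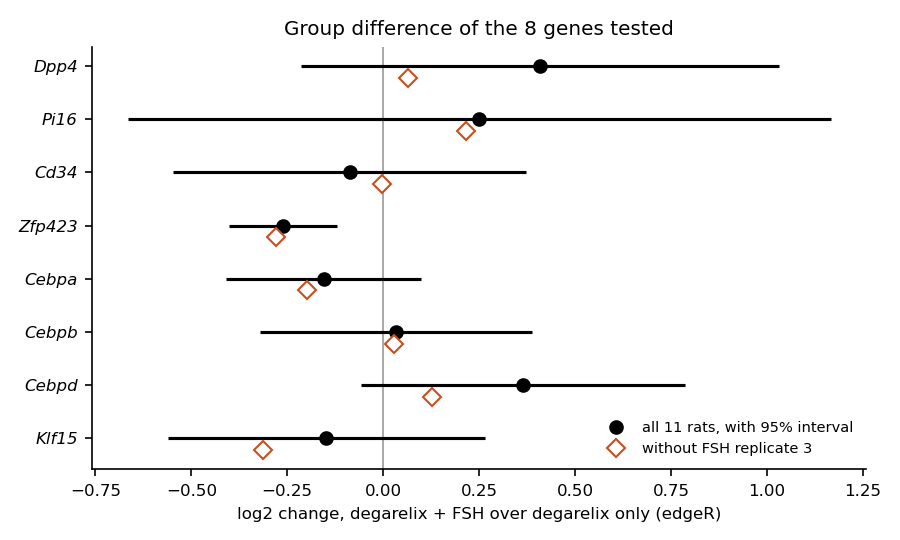
Log2 change of the 8 genes tested, degarelix plus FSH over degarelix only, from edgeR; black points and lines are all 11 rats with the 95% interval, and open diamonds leave out FSH replicate 3. Only the Zfp423 interval, -0.40 to -0.12, lies on one side of 0 before adjustment, and Dpp4 moves to 0.06 without that library.

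The early C/EBP factors did not pass. Cebpb (ENSRNOG00000057347) held 44.0, 41.0, 41.2, 39.6 and 37.0 CPM in degarelix plus FSH replicates 1 to 5 and 25.3 to 54.2 CPM in the degarelix only rats (median 36.9). The degarelix plus FSH rats lay inside the degarelix only range (log2 change 0.03 ± 0.16 SE, adjusted p = 0.922; 95% interval -0.32 to 0.39). The coefficient of variation was 6.23% in degarelix plus FSH rats and 27.0% in degarelix only rats, and this difference in spread was not tested. The sign turned without degarelix only replicate 1 (log2 change -0.07) or 3 (-0.00378), and the log2 change was 0.03 without FSH replicate 3.

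For Cebpd (ENSRNOG00000050869), the difference rested on 1 library. It held 12.0, 9.93, 21.9, 11.2 and 12.6 CPM in degarelix plus FSH replicates 1 to 5 and 8.77 to 12.9 CPM in the degarelix only rats (median 9.83). FSH replicate 3 stood above all other rats, and the remaining degarelix plus FSH values lay within the degarelix only range. The log2 change was 0.36 ± 0.19 SE with all rats (adjusted p = 0.286) and 0.13 without FSH replicate 3 (adjusted p = 0.614). The same library held 64.4 CPM of the Schwann cell gene Sox10, and the part of nerve RNA in its Cebpd and Dpp4 values was not tested. Pearson's r between Dpp4 and Cebpd was 0.872 across 11 rats (permutation p = 0.00266, adjusted p = 0.0566; rho 0.654, adjusted p = 0.235). It was 0.555 without FSH replicate 3 and degarelix only replicate 4.

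**Figure D4:**
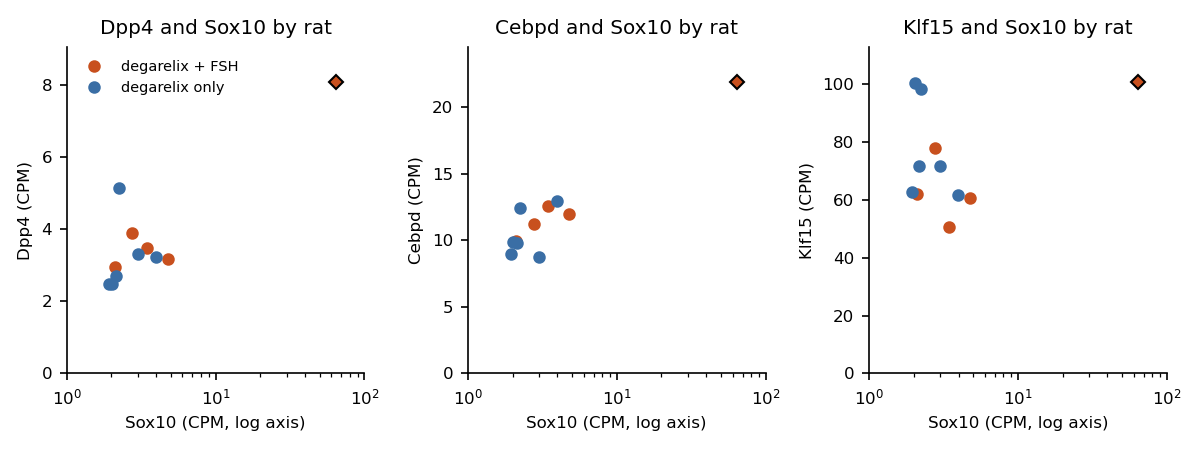
CPM of Dpp4, Cebpd and Klf15 against CPM of the Schwann cell gene Sox10 (log axis), 1 point per rat, degarelix plus FSH in orange and degarelix only in blue; the diamond is FSH replicate 3. That library lies at 64.4 CPM of Sox10, against 1.94 to 4.80 CPM in the other 10, and holds the top value of all 3 genes. For Klf15 the lead is slight, 101 CPM against 100.4 CPM in degarelix only replicate 2.

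Of the late factors, Cebpa (ENSRNOG00000010918) held 593, 683, 728, 704 and 537 CPM in degarelix plus FSH replicates 1 to 5 and 587 to 875 CPM in the degarelix only rats (median 715). The degarelix only mean, 722 CPM, exceeded 4 of the 5 degarelix plus FSH values, and the groups overlapped over most of their range (log2 change -0.15 ± 0.12 SE, adjusted p = 0.453; 95% interval -0.41 to 0.10). Without FSH replicate 3 the log2 change was -0.20 (adjusted p = 0.392).

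Klf15 (ENSRNOG00000017808) held 60.5, 61.9, 101, 77.7 and 50.6 CPM in degarelix plus FSH replicates 1 to 5 and 61.5 to 100.4 CPM in the degarelix only rats (median 71.7). FSH replicate 3 and degarelix only replicates 2 and 4 stood together near the top, so that the highest values came from both groups (log2 change -0.15 ± 0.19 SE, adjusted p = 0.676; 95% interval -0.56 to 0.26). Without FSH replicate 3 the log2 change was -0.31 (adjusted p = 0.321), the lowest of any single library left out.

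Cebpa and Klf15 varied together across rats. Pearson's r was 0.787 (permutation p = 0.00404, adjusted p = 0.0566) and Spearman's rho 0.800 (permutation p = 0.00452, adjusted p = 0.0633), neither past the threshold over the 28 pairs. Pearson's r was 0.820 without FSH replicate 3, 0.719 within the 6 degarelix only rats, and 0.590 without degarelix only replicate 2 and FSH replicate 5, the pair farthest from the median of Cebpa. Their promoter windows, from the same RefSeq table and marked in the same way, are chr1:96896334-96896633 and chr4:124522765-124523064, both on the plus strand.
Cebpa: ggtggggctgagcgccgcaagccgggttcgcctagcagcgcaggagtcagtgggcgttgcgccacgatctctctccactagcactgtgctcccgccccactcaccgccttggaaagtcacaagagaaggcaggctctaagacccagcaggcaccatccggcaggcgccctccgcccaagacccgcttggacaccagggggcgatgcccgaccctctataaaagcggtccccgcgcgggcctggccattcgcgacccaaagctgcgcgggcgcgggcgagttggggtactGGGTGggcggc
Klf15: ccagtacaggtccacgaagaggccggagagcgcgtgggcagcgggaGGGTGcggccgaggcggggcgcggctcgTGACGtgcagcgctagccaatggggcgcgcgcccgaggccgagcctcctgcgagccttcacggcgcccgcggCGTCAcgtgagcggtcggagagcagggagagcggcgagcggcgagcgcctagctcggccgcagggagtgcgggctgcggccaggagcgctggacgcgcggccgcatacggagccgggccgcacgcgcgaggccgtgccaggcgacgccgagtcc
Each held 1 CACCC match, on the reverse strand, and neither held TTGCNNAA. Klf15 also held 2 matches to the half-site TGACG, and Cebpa held 0. The window of Cebpb, not printed, held 3 half-site matches, of which 1 overlaps its CACCC match. Windows were found for 7 of the 10 genes, and Cd248, Zfp423 and Cebpd had no entry.

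By a rule on likeness (Pearson's r of log2 CPM after removing the group means, 11 libraries, only genes averaging 5 CPM or more), the closest genes to each member were the following. Dpp4 was closest to Amigo1 (r = 0.920), Il17re (r = 0.897) and Ankrd52 (r = 0.893), and Pi16 to Prr12 (r = 0.931), Trhde (r = 0.915) and Stac (r = 0.907). Cd34 was closest to Sncaip (r = 0.975), Ccdc88c (r = 0.963) and Traf4 (r = 0.951), and Zfp423 to Lrrc61 (r = 0.878), Uxs1 (r = 0.875) and Pja1 (r = 0.871). Cebpa was closest to Qsox2 (r = 0.977), Vamp2 (r = 0.940) and Tgfbrap1 (r = 0.928), and Klf15 to Tgfbrap1 (r = 0.921), Snx21 (r = 0.918) and Il34 (r = 0.915). Tgfbrap1 stood in the lists of both Cebpa and Klf15. Cebpb was closest to Glt8d1 (r = 0.940), Ptpn21 (r = 0.937) and Mapk12 (r = 0.933), and Cebpd to Fmc1 (r = 0.929), Tmem180 (r = 0.920) and Amigo1 (r = 0.908). These are the highest of 9489 values each (9490 for Dpp4) and serve as description. Amigo1 stood in the lists of both Dpp4 and Cebpd, and its r with them was 0.829 and 0.793 without FSH replicate 3.

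Among other genes listed for these stromal cells, a few were higher with FSH in the whole tissue. Of 14 tested interstitial progenitor genes, the group that in mouse marks DPP4-carrying cells, 2 rose, 0 fell and 12 did not pass, against 1.21% of all genes called higher and 1.07% lower. These were the mitochondrial calcium-binding protein gene Efhd1 (21.0 ± 2.88 CPM in degarelix plus FSH rats and 12.7 ± 2.24 CPM in degarelix only rats; log2 change 0.72 ± 0.14 SE, adjusted p = 0.0311) and the annexin Anxa3 (187 ± 31.6 CPM in degarelix plus FSH rats and 128 ± 15.5 CPM in degarelix only rats; log2 change 0.55 ± 0.12 SE, adjusted p = 0.0372). Efhd1 did not overlap between the groups, as for 4.34% of all genes. The guidance factor Sema3c (log2 change -0.57, adjusted p = 0.135) and Limch1 (-0.29, adjusted p = 0.161) came next. The list median was 0.06 with all rats and -0.02 without FSH replicate 3. Efhd1 lost its call when degarelix only replicate 2, 5 or 6 or FSH replicate 1, 2 or 3 was left out (highest adjusted p 0.0750). Anxa3 lost it when any library except degarelix only replicates 3 and 4 and FSH replicate 4 was left out (highest 0.0937). Among degarelix plus FSH rats, Anxa3 and the summed endothelial markers were both highest in replicate 1 (233 and 2638 CPM). Among degarelix only rats, both were highest in replicate 3 (149 and 1932 CPM). The part of endothelial RNA in the Anxa3 value was not tested.

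Of 14 tested stromal fibroblast and progenitor genes, 1 rose, 0 fell and 13 did not pass (1.21% of all genes were called higher and 1.07% lower), with a list median of 0.05 (0.09 without FSH replicate 3). The gene that rose was Eng, a co-receptor for transforming growth factor β that is also abundant on endothelium (591 ± 27.8 CPM in degarelix plus FSH rats and 443 ± 49.3 CPM in degarelix only rats; log2 change 0.42 ± 0.08 SE, adjusted p = 0.0328). Its groups did not overlap (4.34% of all genes). It lost its call when degarelix only replicate 1, 5 or 6 or any FSH replicate except 4 was left out (highest adjusted p 0.0818). The endothelial receptor Tek also rose (log2 change 0.44 ± 0.10 SE, adjusted p = 0.0431) and lost its call in the same way as Anxa3 (highest adjusted p 0.106). Tek was the 1 endothelial marker of 8 past the threshold, while all 8 had log2 changes above 0 (median 0.32), against 51.6% of all genes. Of the 8 markers, 5 had an unadjusted p below 0.05 (22.6% of all genes) and DESeq2 called 3 (8.84% of all genes). The part of endothelial RNA in the Eng value was not tested. The next stromal genes were the microfibril gene Mfap5 (log2 change 0.34, adjusted p = 0.204, or 0.0437 without degarelix only replicate 4) and the homeobox gene Prrx1 (-0.52, adjusted p = 0.271).

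No gene passed among 9 committed preadipocyte genes or 10 genes of F3-carrying stromal cells, which in mouse restrain adipogenesis in their neighbours. The first list had a median of -0.13 (-0.12 without FSH replicate 3), led by the collagen chain Col15a1 (log2 change -0.67 ± 0.18 SE, adjusted p = 0.0681). Col15a1 was read at low depth, 21 to 74 counts per library. It lay at 1.45 to 1.88 CPM in degarelix plus FSH rats and 1.94 to 3.61 CPM in degarelix only rats. Its groups did not overlap, as for 4.34% of all genes. Pparg, the master regulator of fat cells, came next (253 ± 22.5 CPM in degarelix plus FSH rats and 328 ± 55.5 CPM in degarelix only rats; log2 change -0.38 ± 0.11 SE, adjusted p = 0.0893). The second list had a median of 0.32 (0.20 without FSH replicate 3), with 9 of 10 values above 0, against 51.6% of all genes. Its leading genes were the growth factor carrier Igfbp3 (log2 change 0.50, adjusted p = 0.132) and Rgcc (0.20, adjusted p = 0.206), by size of p. At an unadjusted p below 0.05 there were 3 genes of the preadipocyte list and 2 of the F3 list, against 22.6% of all genes. DESeq2 called 3 genes of the preadipocyte list and 0 of the F3 list, against 8.84% of all genes, and limma-voom called 0 of either (2.52%).

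In the families of the transcription factors, which include Cebpa, Cebpb, Cebpd and Klf15, no C/EBP gene (5 tested) and no KLF gene (13 tested) passed. The C/EBP median was -0.05 (-0.04 without FSH replicate 3), and the stress factor Ddit3 had a log2 change of -0.26 (adjusted p = 0.251). The KLF median was 0.15 (0.12 without FSH replicate 3). Klf2, a factor of endothelial cells that also restrains preadipocytes, held 74.1 ± 10.5 CPM in degarelix plus FSH rats and 42.0 ± 14.5 CPM in degarelix only rats (log2 change 0.82, adjusted p = 0.0665, or 0.0198 without degarelix only replicate 4), and Klf11 had 0.39 (adjusted p = 0.114). At an unadjusted p below 0.05 there were 0 C/EBP and 3 KLF genes, against 22.6% of all genes. DESeq2 called 0 C/EBP genes and 1 KLF gene (8.84% of all genes), and limma-voom called 0 of either.

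Of 31 tested adipogenic regulators, 1 rose, 1 fell and 29 did not pass (1.21% of all genes were called higher and 1.07% lower), with a median of 0.03 (0.03 without FSH replicate 3). An unadjusted p below 0.05 was found for 9 (22.6% of all genes), DESeq2 called 6 (8.84%) and limma-voom 2 (2.52%). Rxra, the partner receptor of PPARγ, fell to 36.9 ± 7.58 CPM in degarelix plus FSH rats, against 60.6 ± 9.59 CPM in degarelix only rats (log2 change -0.72 ± 0.14 SE, adjusted p = 0.0335). Gata2, which holds preadipocytes back and is also an endothelial transcription factor, rose to 39.3 ± 3.65 CPM in degarelix plus FSH rats, against 29.4 ± 2.50 CPM in degarelix only rats (log2 change 0.41 ± 0.08 SE, adjusted p = 0.0308). Neither gene overlapped between the groups (4.34% of all genes). The summed endothelial markers averaged 2046 ± 393 CPM in degarelix plus FSH rats and 1632 ± 170.5 CPM in degarelix only rats (exact permutation p = 0.0390, adjusted p = 0.156 over 4 summed lists), and their part in the Gata2 value was not tested. Gata2 lost its call for the same libraries left out as Eng (highest adjusted p 0.0738), and Rxra likewise, except that it kept the call without FSH replicate 3 (adjusted p = 0.0448; highest 0.0893). Zeb1 (0.38, adjusted p = 0.0561, or 0.0332 without FSH replicate 4) and the BMP receptor Bmpr1a (-0.54, adjusted p = 0.0801) followed.

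Genes of mature adipocytes, of amino acid breakdown and of the response to glucocorticoids did not pass. Of 19 mature adipocyte genes, none passed, and the median was -0.01 (-0.09 without FSH replicate 3). The triglyceride synthesis enzyme Dgat2 had a log2 change of -0.55 (adjusted p = 0.0764, or 0.0124 without degarelix only replicate 4), and leptin (Lep) had -0.62 (adjusted p = 0.0790). Of 20 genes of branched-chain and other amino acid breakdown, a process that KLF15 regulates in mouse liver and muscle, 0 passed. Their median was -0.11 (-0.14 without FSH replicate 3), led by Dld (-0.26, adjusted p = 0.217) and Mccc2 (-0.20, adjusted p = 0.279). Of 13 glucocorticoid-induced genes, 0 passed. Their median was 0.23 (0.10 without FSH replicate 3), led by Errfi1 (0.66, adjusted p = 0.0871) and the kinase Sgk1 (0.57, adjusted p = 0.0949). At an unadjusted p below 0.05 there were 5 mature adipocyte, 1 amino acid breakdown and 3 glucocorticoid-induced genes, against 22.6% of all genes. DESeq2 called 3, 0 and 3 genes of these lists, in that order (8.84% of all genes), and limma-voom 0 (2.52%). Adjusted p values named without a tool are from edgeR's quasi-likelihood test over all genes.

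**Figure D5:**
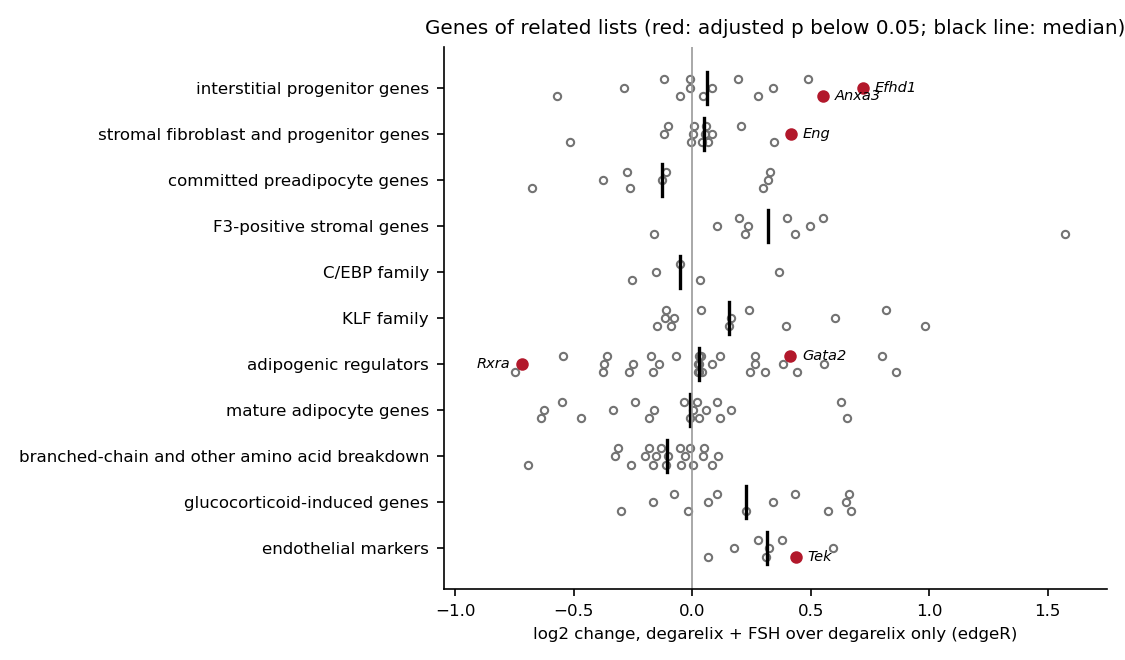
Log2 change of each tested gene of the related lists, degarelix plus FSH over degarelix only, from edgeR; open circles did not pass, red points passed an adjusted p of 0.05, and the black line is the list's median. The 6 genes past the threshold are Efhd1, Anxa3, Eng, Gata2 and Tek above 0 and Rxra below 0. They belong to the interstitial progenitor, stromal, adipogenic regulator and endothelial lists, whose medians are 0.06, 0.05, 0.03 and 0.32. Over all lists shown, medians lie between -0.13 and 0.32.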

How the data were processed

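Whole-number counts per Ensembl gene were deposited, 1 column per rat, with no normalization, as the values show. The submitters' processing notes name STAR, edgeR, DESeq2 and rn6 without saying what each did. How reads were assigned to genes, and with which strand setting, is not given in the sources used here; overlapping and antisense genes may share counts. Per the labels' protocols, libraries came from a stranded mRNA kit. Pcmt1 was left out because 1 cell holds a letter.

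The comparison was fitted over all 12846 genes kept by filterByExpr with edgeR 4.0.16 (R 4.3.3; TMM scaling, quasi-likelihood F test with robust estimation, 9 residual degrees of freedom) and Benjamini-Hochberg adjustment, two-sided; standard errors derive from the test. Log2 CPM used a prior count of 2. Single values and summed lists were tested by exact permutation over 462 splits, which give no two-sided p below 0.00433; correlations used 100000 resamples. Alternatives were other scalings, filters and thresholds, each library left out, a replicate block, DESeq2 1.42.0 and limma-voom (3.58.1). Members, 10 gene lists and 13 marker lists (243 symbols, 235 matched, 6 not, 2 on several rows) were chosen with earlier results of these data known. Named genes were the members and, of each list, the genes past the threshold and the next 2 by p. Of the marker lists, this rule's next 2 are not reported as results. Adipoq, Pdgfra, Dcn, Col1a1, Col1a2, Sox10, Reln and S100b are given as checks of tissue and libraries, chosen after their values were seen. Lyve1, Pdpn, Mmrn1 and Prox1, the rest of the lymphatic list, are given beside Reln. Markers of lymphatic, mesothelial, mural, T, B, neutrophil, mast, adrenal, kidney and skeletal muscle cells served as a check of the tissue. None of their genes passed in edgeR, DESeq2 or limma-voom, against 2.27%, 8.84% and 2.52% of all genes. In edgeR 4 had an unadjusted p below 0.05, against 22.6% of all genes. Libraries of all 55 pairs differed beyond sampling noise (lowest chi-square per degree of freedom 22.5). Symbols were matched through RefSeq's GRCr8 table, so no gene positions on rn6 are given. Some marker genes are not reported here.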

Additional observations from a re-analysis of the deposited data

Results flagged for a closer look

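Of 80 sets of values examined (a gene or summed list within 1 group), 10 held a rat set off from the others by more than most of that group's range. For sets not chosen by their values, chance gives about 1 group in 20. In degarelix plus FSH rats, replicate 3 stood high for Dpp4 (8.09 CPM, next 3.89), Cebpd (21.9 CPM, next 12.6), Limch1 (12.3 CPM, next 9.36), Dlk1 (0.149 CPM, the others at 0) and Sox10 (64.4 CPM, next 4.80). These 5 share that library, and whether nerve RNA carries the Dpp4, Cebpd, Limch1 or Dlk1 counts was not tested. Replicate 5 stood low for Efhd1 (15.9 CPM, next 21.5) and held the single Cd248 count (0.0485 CPM). For Cd248 and Dlk1 the flag was fixed once only 1 library held any count, so these flags do not bear on the chance rate. Sox10 was chosen after its values were seen, and Efhd1 and Limch1 were named by their p in these data. The count of flags therefore cannot be set against the chance rate.

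In degarelix only rats, replicate 4 stood high for Dpp4 (5.15 CPM, next 3.31) and for summed macrophage markers (578 CPM, next 365). Replicate 2 stood low for Zfp423 (94.8 CPM, next 112).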

How the results depend on the processing

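The count of genes past the threshold (292) was 30 to 551 with 1 library left out, 1135 with DESeq2 and 962 at a threshold of 0.10; the other scalings, filters, limma-voom and non-robust edgeR kept it within 1.5 times. None of the 8 members passed in edgeR under any alternative except Zfp423, without degarelix only replicate 2 and at the threshold of 0.10 (log2 change -0.26); DESeq2 also called it (-0.27, adjusted p = 0.00376). With 1 library left out, the log2 change was -0.31 to -0.24 for Zfp423, -0.22 to 0.00743 for Cd34, -0.0676 to 0.14 for Cebpb, 0.0643 to 0.59 for Dpp4, 0.0252 to 0.61 for Pi16, 0.13 to 0.46 for Cebpd, -0.31 to -0.0496 for Klf15 and -0.21 to -0.0926 for Cebpa. Of 160 recomputed member values, 154 kept sign and side of the threshold, 3 passed and 3 turned sign; those 3 had adjusted p above 0.8. The log2 ratio of summed lists was 0.22 to 0.40 for endothelial markers (exact permutation p 0.0191 to 0.0857), -0.14 to 0.23 for macrophage markers (-0.00144 with DESeq2's size factors), -0.0360 to 0.0881 for stromal genes and -0.12 to 0.0123 for mature adipocyte genes. The labels number rats within groups, and same-numbered rats did not deviate together (correlations -0.110 to 0.130; 0 of 5 matched best with their own number). With the replicate block, 14 genes passed, the adjusted p of Zfp423 was 0.183, and Efhd1, Anxa3, Eng, Gata2, Rxra and Tek did not pass (adjusted p 0.101 to 0.159). Depth limits Dpp4, at 41 counts in its lowest library. Cd248 and Dlk1 stay unmeasured, and whether depth or the counting of these rows accounts for it was not tested.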

Other observations

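Each of the 8 members was also set against 5 library measures across the 11 rats (summed mature adipocyte, stromal, endothelial and macrophage genes, and the total count), 40 relations in all, and none passed the adjustment. Cd34 ran lower where summed mature adipocyte genes ran higher (r = -0.726, permutation p = 0.0119, adjusted p = 0.395; rho = -0.791, permutation p = 0.00545, adjusted p = 0.218). It was -0.669 without degarelix only replicates 4 and 6, the pair farthest from the median of Cd34, and -0.760 within the degarelix only rats. Cebpa ran lower where summed endothelial markers ran higher (r = -0.683, permutation p = 0.0207, adjusted p = 0.395; rho = -0.654, adjusted p = 0.429), and r was -0.705 without degarelix only replicate 2 and FSH replicate 5. Zfp423 likewise ran lower where summed endothelial markers ran higher (r = -0.641, permutation p = 0.0296, adjusted p = 0.395, and rho = -0.627, adjusted p = 0.429). Its r was -0.74 without degarelix only replicates 1 and 3, -0.0682 within the degarelix only rats and -0.278 after removing the group means. CPM values share 1 total per library, so an abundant set of genes and the rest are not independent of each other.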
